A study of Homo sapiens with 6 samples.

Results

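The small heat shock proteins, their partner BAG3 and the heat shock factor HSF1 were followed in MDA-MB-231 cells, an invasive triple-negative breast cancer line, with and without a hairpin against ATAD3A, an ATPase of the inner mitochondrial membrane. The members were 9 genes, HSPB1, HSPB2, HSPB3, HSPB6, HSPB7, HSPB8, CRYAB, BAG3 and HSF1, and all probe sets annotated to one of them alone were taken, 13 of the 54613 probe sets tested. One further probe set that names HSPB2 together with neighbouring genes was set aside. RNA from shATAD3A cells, which carry a stable pLKO.1 short hairpin against ATAD3A, was hybridised to 3 Affymetrix U133 Plus 2.0 arrays. RNA from shGFP cells, which carry the same vector with a hairpin against GFP, was hybridised to 3 arrays. Both populations had been infected with lentivirus, selected in puromycin at 1.0 µg/ml for 2 weeks and used at passage 2. How many hairpin sequences or clones they hold is not stated. Whether the replicate arrays came from separate cultures is not stated, so the spread between them may be technical, and their number limits the precision.

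Small heat shock proteins are ATP-independent chaperones that share the alpha-crystallin domain. They hold unfolding proteins in a soluble state until HSP70 and its partners refold or discard them. HSPB8 works with BAG3, a scaffold that joins it to HSP70 and passes clients to autophagy, while HSPB1 and CRYAB (also called HSPB5) form large oligomers that bind filaments and damaged proteins. HSF1 is the transcription factor that switches on many chaperone genes after heat or other protein damage. Several family members, among them HSPB2, HSPB3, HSPB6 and HSPB7, are known mainly from striated muscle.

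The 250 bases before the annotated start of HSPB8, HSPB1 and BAG3 are shown. These were the chaperone members with a mean over the 6 arrays above the low range and a promoter in the RefSeq table. HSPB8 cleared that mean only through the shATAD3A arrays. The windows were searched because heat shock factors bind inverted GAA units. Capitals mark each GAANNTTC or TTCNNGAA, a pair of such units, and both motifs read the same on both strands. The windows lie on the plus strand of GRCh38.p14 at chr12:119178681-119178930 (HSPB8), chr7:76302423-76302672 (HSPB1) and chr10:119651130-119651379 (BAG3).
HSPB8: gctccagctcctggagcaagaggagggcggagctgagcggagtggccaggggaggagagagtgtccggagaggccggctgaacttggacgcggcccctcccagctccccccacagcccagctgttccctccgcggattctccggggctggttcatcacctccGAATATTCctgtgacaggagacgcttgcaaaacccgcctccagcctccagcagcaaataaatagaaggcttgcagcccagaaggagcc
HSPB1: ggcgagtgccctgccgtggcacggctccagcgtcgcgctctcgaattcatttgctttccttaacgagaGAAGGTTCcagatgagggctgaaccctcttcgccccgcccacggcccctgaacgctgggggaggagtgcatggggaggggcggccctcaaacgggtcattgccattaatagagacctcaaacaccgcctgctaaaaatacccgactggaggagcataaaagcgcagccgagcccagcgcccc
BAG3: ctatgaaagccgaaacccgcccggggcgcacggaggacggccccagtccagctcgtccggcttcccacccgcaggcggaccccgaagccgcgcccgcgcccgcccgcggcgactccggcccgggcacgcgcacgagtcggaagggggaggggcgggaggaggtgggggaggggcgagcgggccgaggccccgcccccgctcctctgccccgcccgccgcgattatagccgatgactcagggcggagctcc
The HSPB8 window held 1 pair, GAATATTC, whose first base lies 88 bases before the start, and the HSPB1 window held 1 pair, GAAGGTTC, whose first base lies 182 bases before it. No pair was found in the BAG3 window. Over the full 300 bases of each RefSeq entry, which run past the windows shown, HSPB8 held 2 pairs, HSPB1 1 and BAG3 0. Over those 300 bases 13.5% of all promoters held a pair. Of the 35116 promoters in the table, 11.6% held such a pair within the same 250 bases, so a single match is common. A run of 3 such units, each inverted against the one before, was in 0.441% of all windows and in none of the 6 member promoters in the table. Among the muscle-associated members, HSPB3 had 1 pair, HSPB6 had 2 and HSPB7 had 0. A match is a string of letters and was not examined for binding.

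All expression values are on a log2 scale, differences are shATAD3A minus shGFP, each with the SE that limma gave, and means carry the SD over 3 arrays. Values formed a low mode, which holds little signal, and a broad upper range, with the least dense point between them at 4.77, a boundary set after seeing the data. Below it lay 48.4% of 19775 genes. ATAD3A, the targeted gene, averaged 7.28 ± 0.21 in shATAD3A arrays and 7.77 ± 0.038 in shGFP arrays (SD, n = 3 each), a difference of -0.49 ± 0.105 (SE). This is 0.71-fold, read on the only probe set annotated to ATAD3A alone. That probe set is of the x_at type, whose probes can match other transcripts. Of the MDA-MB-231 marker genes VIM, CD44, AXL, MSN, CAV1 and EGFR, 6 of 6 lay above the low mode in both groups, while ESR1 and PGR lay within it and ERBB2 above it. Of 9 striated muscle markers measured, 0 had a mean above the low mode in shATAD3A cells and 1, MB, in shGFP cells. Marker levels also differed between the groups: CD44, AXL, MSN and CAV1 changed by -0.34, -0.26, -0.45 and -0.25, and ERBB2 rose by 0.51. Of 7 fibroblast markers 2 rose, COL1A1 by 1.01 and LUM, within the low mode, by 0.55. Of 5 leukocyte markers 2 fell, both within the low mode, CD14 with -1.60 and LYZ with -0.18. The muscle marker MB changed by -1.64, with its shATAD3A mean within the low mode. The part of these shifts in the results below was not tested.

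The genes were chosen by family and by the known log2 difference of HSPB8 between these same groups, so the members' values are given as a description without p-values. In the fit over all probe sets, 2 of the 13 member probe sets were higher and 2 were lower at a limma adjusted p of 0.05, where 22.4% of all probe sets passed (12.0% higher, 10.5% lower). Groups did not overlap for 5 of the 13, against 33.2% of all probe sets. Only 4 of the 13 had a mean over the 6 arrays above the low mode, 1 each for HSPB8, HSPB1, BAG3 and HSF1, and these were the 4 that passed. The HSPB8 probe set cleared this mean only through the shATAD3A arrays, so its place among the 4 is tied to its difference. Among all probe sets above the low mode, 52.3% passed, and nothing is read from the members' count against it. The median difference of the member probe sets was -0.017, and that of all probe sets was -0.0053.

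**Figure D1:**
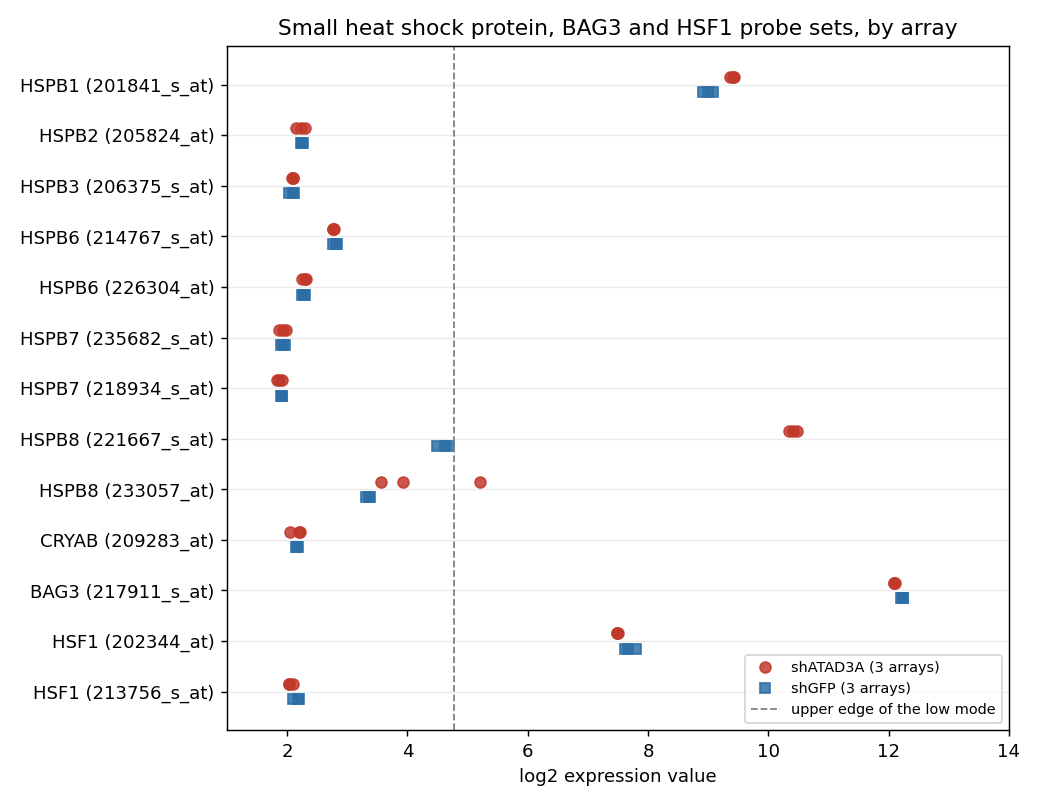
Log2 expression value (horizontal axis) of the 13 member probe sets in 3 shATAD3A arrays (red circles) and 3 shGFP arrays (blue squares); the dashed line marks the upper edge of the low mode at 4.77. The brighter HSPB8 probe set is the only one whose groups lie wholly on opposite sides of that line; the brighter probe sets of HSPB1, BAG3 and HSF1 lie right of it in both groups.

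HSPB8, the chaperone that partners BAG3, was the member with the widest gap between the groups. Its brighter probe set read 10.4, 10.4 and 10.5 in shATAD3A arrays, against 4.50, 4.63 and 4.68 in shGFP arrays. All shATAD3A arrays stood far above all shGFP arrays, and the shGFP arrays sat just under the edge of the low mode. The group means were 10.4 ± 0.064 in shATAD3A cells and 4.60 ± 0.096 in shGFP cells (SD, n = 3 each), a difference of 5.81 ± 0.060 (SE). This corresponds to 56.1-fold on the array scale, a figure that is imprecise because the shGFP level holds little signal. In bulk RNA, more cells expressing HSPB8 and more HSPB8 RNA per cell cannot be told apart.

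The second HSPB8 probe set stayed dim and varied between the shATAD3A arrays. It read 3.93, 5.20 and 3.57 in shATAD3A arrays, against 3.39, 3.37 and 3.31 in shGFP arrays. The lowest shATAD3A array was above the highest shGFP array, and shATAD3A replicate 2 alone passed the edge of the low mode. The difference was 0.88 ± 0.42 (SE), did not pass the threshold, and was 0.39 without shATAD3A replicate 2. The 2 HSPB8 probe sets thus gave the same direction with very different sizes, and their average gave a difference of 3.34. The brighter one is of the s_at type, whose probes can match more than 1 transcript, and the dim one is not. Which stretch of the transcript each of them covers was not analysed here.

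BAG3, which couples HSPB8 and HSP70 to selective autophagy, was bright in both groups. It read 12.1 in each of the 3 shATAD3A arrays (12.08 to 12.11), against 12.2 in each of the 3 shGFP arrays (12.21 to 12.24). The groups did not overlap, but they lay close together. The difference was -0.13 ± 0.024 (SE), or 8.91% lower in shATAD3A cells, and so ran opposite to that of HSPB8. The call did not hold without shGFP replicate 2, where the difference was also -0.13, nor in 3 of the other settings tried.

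HSPB1, the broadly expressed oligomer-forming member also known as HSP27, was modestly higher. It read 9.35, 9.43 and 9.42 in shATAD3A arrays, against 9.08, 8.99 and 8.91 in shGFP arrays. Every shATAD3A array exceeded every shGFP array. The means were 9.40 ± 0.040 in shATAD3A cells and 8.99 ± 0.087 in shGFP cells (SD, n = 3 each), a difference of 0.41 ± 0.051 (SE), or 1.33-fold. Its probe set, like that of BAG3 and the brighter one of HSPB8, is of the s_at type, whose probes can match more than 1 transcript.

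**Figure D2:**
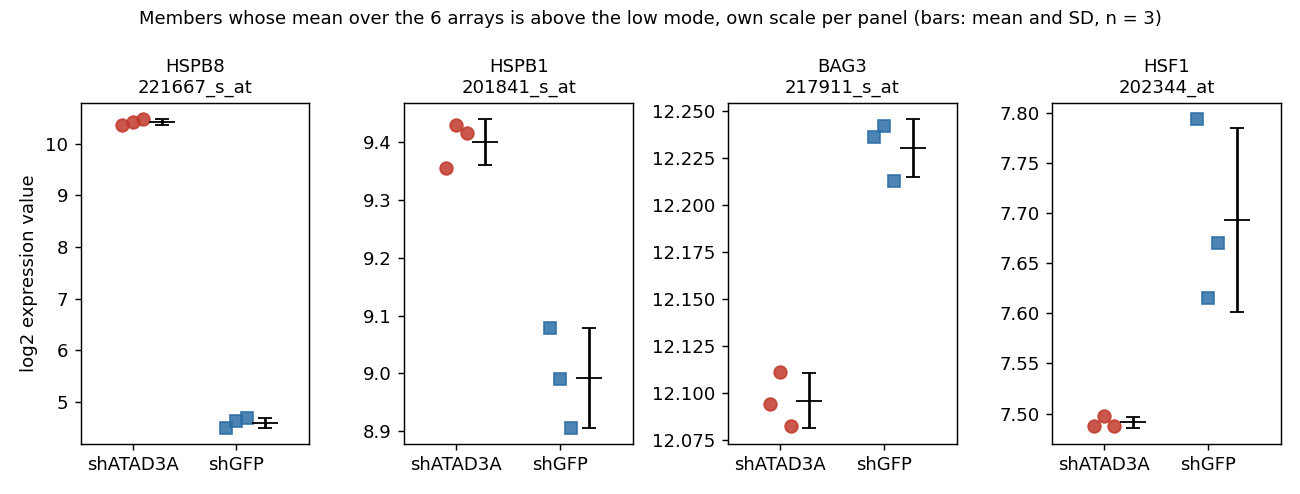
Log2 expression value (vertical axis, own scale in each panel) of HSPB8, HSPB1, BAG3 and HSF1 in 3 shATAD3A arrays (circles) and 3 shGFP arrays (squares), with mean and SD as black bars. HSPB8 spans 5.81 units between the groups, HSPB1 0.41, and BAG3 and HSF1 are lower in shATAD3A by 0.13 and 0.20.

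HSF1, the heat shock transcription factor, was slightly lower in shATAD3A cells. Its brighter probe set read 7.49, 7.50 and 7.49 in shATAD3A arrays, against 7.79, 7.62 and 7.67 in shGFP arrays. The groups did not overlap, and the shGFP arrays were more spread out than the shATAD3A arrays. The difference was -0.20 ± 0.049 (SE), or 13.1% lower in shATAD3A cells. The call was lost in 8 of 13 other settings. Among these were the fits without shATAD3A replicate 1, 2 or 3 (differences of -0.20, -0.21 and -0.20) and without shGFP replicate 3 (-0.21). The other HSF1 probe set lay in the low mode, with 2.09, 2.04 and 2.03 in shATAD3A arrays, against 2.20, 2.09 and 2.18 in shGFP arrays, and the groups overlapped.

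The other small heat shock proteins stayed in the low mode in both groups. CRYAB, the lens and muscle chaperone alpha-B-crystallin, read 2.19, 2.04 and 2.21 in shATAD3A arrays, against 2.17, 2.15 and 2.17 in shGFP arrays. HSPB2, which lies next to CRYAB in the genome, read 2.30, 2.23 and 2.15 in shATAD3A arrays, against 2.23, 2.25 and 2.26 in shGFP arrays. The groups overlapped for both genes, and CRYAB and HSPB2 differed by -0.017 and -0.020. DIXDC1, on the far side of HSPB2, differed by 0.41.

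HSPB3, HSPB6 and HSPB7 were as dim. HSPB3 read 2.10, 2.09 and 2.09 in shATAD3A arrays, against 2.02, 2.11 and 2.09 in shGFP arrays. The brighter HSPB6 probe set averaged 2.77 ± 0.0085 in shATAD3A cells and 2.80 ± 0.035 in shGFP cells (SD, n = 3 each). The brighter HSPB7 probe set averaged 1.92 ± 0.057 in shATAD3A cells and 1.93 ± 0.030 in shGFP cells (SD, n = 3 each). Leaving out the dim HSPB8 probe set, the 8 member probe sets in the low mode ranged from 1.84 to 2.83 over all arrays, and their differences from -0.106 to 0.019. Values this low do not show whether the transcripts were absent or below what the probes can measure. CRYAA, HSPB9 and ODF1, the other alpha-crystallin domain genes measured, lay in the low mode too, and 0 of these 3 passed, with the smallest p for HSPB9 (-0.029, limma adjusted p = 0.688).

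Neighbouring genes were set beside each member, since runs of genes can move together in a cell line. The median difference of the 25 genes on either side was 0.024 around HSPB8, 0.022 around HSPB1, -0.013 around BAG3 and -0.028 around HSF1. The genes directly beside HSPB8, SRRM4 and LINC00934, differed by -0.010 and -0.014. Levels of the neighbours were not examined, so a small difference may belong to a gene in the low mode. The 50 neighbours of HSPB8 ranged from -0.76 to 1.59, with 16 called higher and 3 lower. Of the 50 neighbours of each of the others, 14 were higher and 5 lower around HSPB1, 10 higher and 11 lower around BAG3, and 2 higher and 9 lower around HSF1. Among all genes, 19.7% were called higher and 13.9% lower. Of the genes directly beside HSF1, DGAT1 changed by -0.37, and MROH1 differed by -0.33 and did not pass. With the neighbour median removed, HSPB8 differed by 5.79, HSPB1 by 0.39, BAG3 by -0.12 and HSF1 by -0.17. The medians took in every neighbour, also any within the low mode, and so can stay small where expressed neighbours move. Whether runs of genes moved together was not tested.

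**Figure D3:**
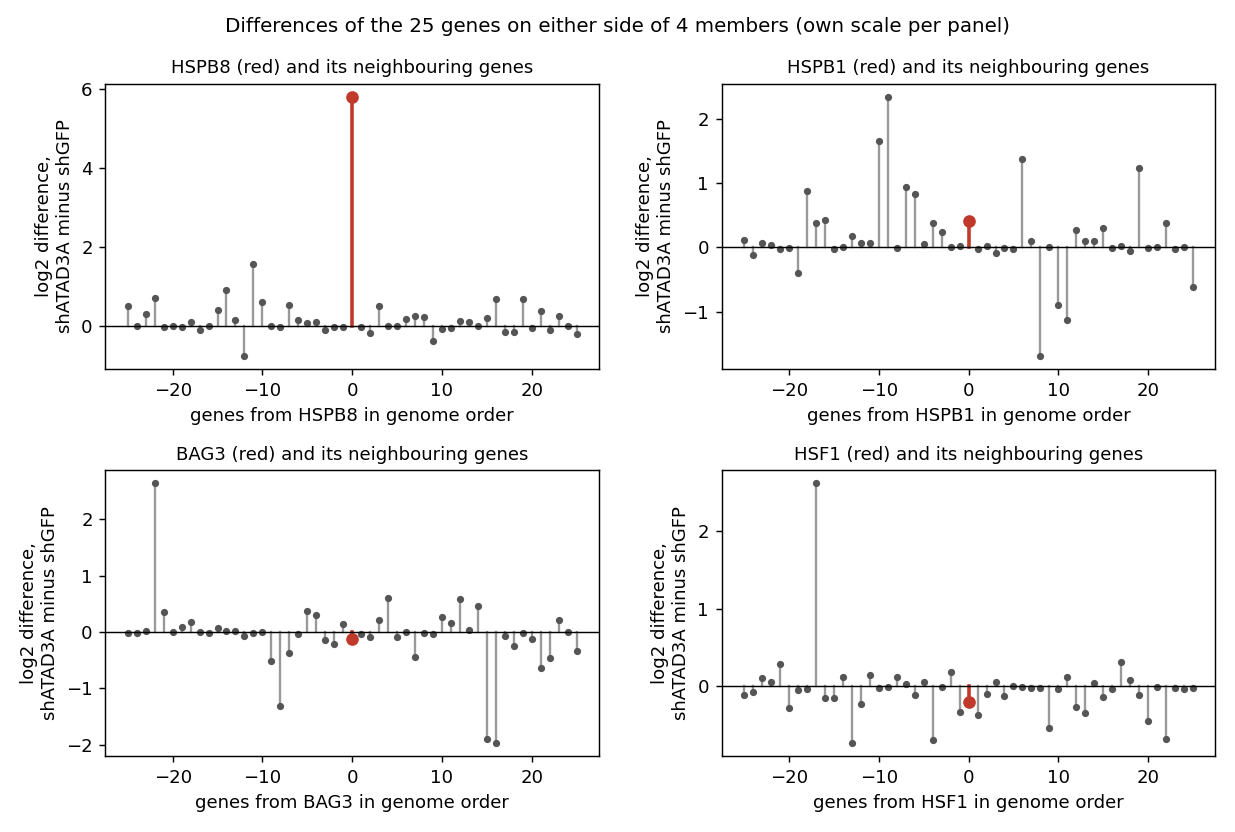
Log2 difference, shATAD3A minus shGFP (vertical axis, own scale in each panel), of HSPB8, HSPB1, BAG3 and HSF1 (red) and of the 25 genes on either side in genome order (grey; horizontal axis, position in genes). HSPB8 is at 5.81 and the highest of its 50 neighbours at 1.59, a gap tied to the choice of HSPB8 by its known difference.

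The genes nearest to HSPB8 by Euclidean distance over the 6 log2 values were, among 19775 genes, the protocadherin PCDH7 (distance 0.862), the hexokinase family member HKDC1 (0.956), SEL1L3 (2.25), the sulfotransferase SULT1C2 (2.40) and ID2 (2.69). They averaged between 9.36 and 11.8 in shATAD3A cells and between 3.87 and 5.88 in shGFP cells, with differences between 4.04 (SULT1C2) and 6.67 (ID2). Their levels and large differences follow from being picked for closeness to HSPB8, so they are not a separate result. The likeness rests on 6 arrays in 2 groups, and levels of different probe sets are not on a common scale.

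The wider chaperone network moved in both directions by smaller steps. Of 75 distinct genes in 11 lists, 33 rose, 14 fell and 28 did not pass, 62.7% called in all, with a median difference of 0.043. Among all genes 33.6% were called (19.7% higher, 13.9% lower), and among genes above the low mode, where 60 of the 75 lay, 61.9%. All 47 called list genes lay among those 60. The 62.7%, taken over all 75, is therefore not on the same base as the 61.9%, and the share among the 60 is higher. The share called depends on signal, and list genes were not matched to other genes for it. Nothing is therefore read from this comparison. The median of all genes was -0.00084. The limma adjusted p of the 30 called genes taken from these lists lay between 3.01e-06 (SERPINH1) and 0.0375 (FKBP5). Some genes stand in more than one list, so the lists are not independent.

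**Figure D4:**
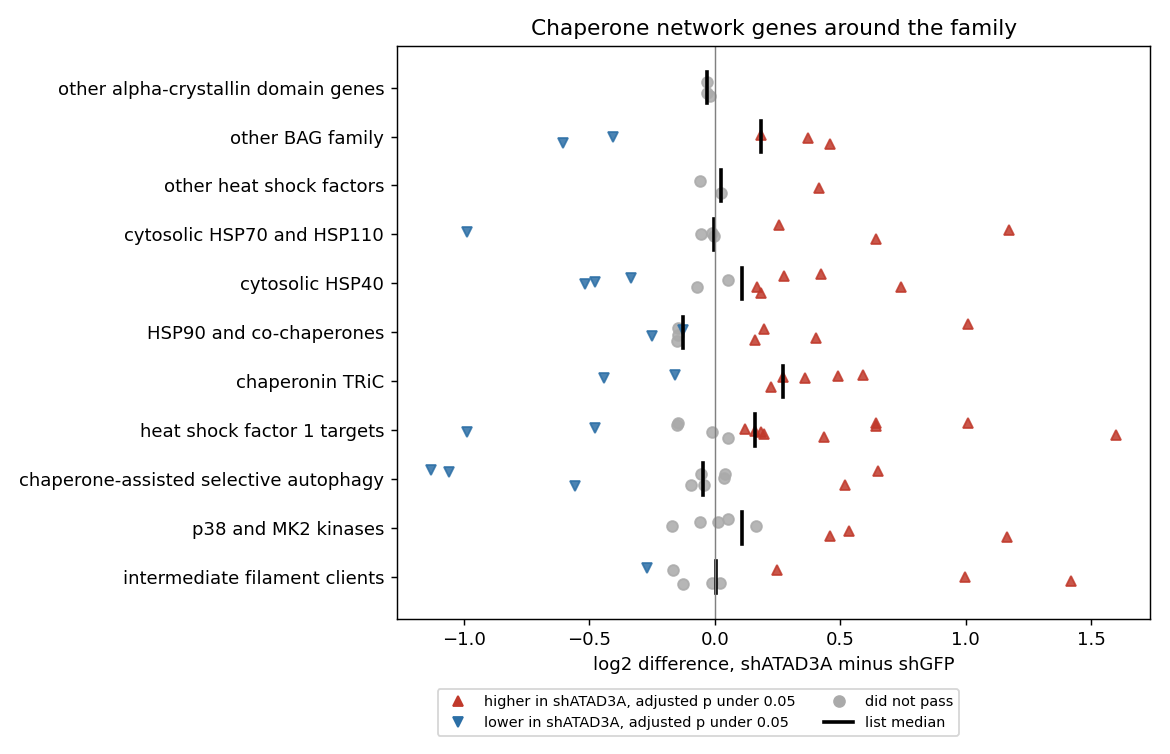
Log2 difference, shATAD3A minus shGFP (horizontal axis), of each measured gene in 11 chaperone network lists; red triangles rose, blue triangles fell and grey circles did not pass a limma adjusted p of 0.05, and black bars are list medians. List genes lie within -1.13 (WIPI1) and 1.60 (SERPINH1), with both directions in most lists.

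Other BAG family genes, named for the domain through which BAG3 acts on HSP70, all passed, with 3 of 5 higher and 2 lower and a median of 0.18. Without shATAD3A replicate 3, or without shGFP replicate 2, 3 of the 5 passed. BAG2, an inhibitor of the ubiquitin ligase CHIP, averaged 12.3 ± 0.037 in shATAD3A cells and 11.8 ± 0.068 in shGFP cells (SD, n = 3 each), a difference of 0.46 (limma adjusted p = 0.000421). Its other probe sets did not pass, at 0.16 and -0.13. BAG4 rose by 0.37 on its brightest probe set, while the other BAG4 probe sets gave -0.097 and -0.11. BAG6, which guards tail-anchored and mislocalised proteins, fell to 11.3 ± 0.049 in shATAD3A cells, against 11.9 ± 0.043 in shGFP cells (SD, n = 3 each), a difference of -0.60, with -0.69 and -0.67 on its other bright probe sets. BAG5 changed by -0.40 on its s_at probe set used here, while its other probe sets gave -0.11 and -0.26 and did not pass.

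Of the 3 genes measured in the list of other heat shock factors and a factor-binding protein, 1 rose and 0 fell. It was HSBP1, a small protein that binds heat shock factors, with 0.42 on one probe set and -0.028 on another that did not pass. The factors themselves, HSF4 and HSF5, lay in the low mode and did not pass, and HSF2 was not analysed here. Of 15 measured genes known as heat-inducible targets of HSF1, 9 rose, 2 fell and 4 did not pass, with a median of 0.16. SERPINH1, the collagen chaperone HSP47, averaged 11.3 ± 0.059 in shATAD3A cells and 9.74 ± 0.022 in shGFP cells (SD, n = 3 each), a 3.03-fold increase. FKBP4, a co-chaperone of HSP90, rose by 1.01, with 1.04 on another probe set. HSPA4L changed by -0.99, with -0.27 on another probe set, and the HSP40 gene DNAJB1 by -0.48, with -0.59 on another. HSPA6, the strictly heat-inducible HSP70, lay in the low mode, at 2.42 in shATAD3A cells and 2.43 in shGFP cells.

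In the cytosolic HSP70 and HSP110 list, 3 of the 7 genes analysed rose, 1 fell and the median was -0.0030. HSPA1A, HSPA1B and HSPA8, the main inducible and constitutive HSP70 genes, were not analysed here, so neither this count nor that of the HSF1 targets covers them. HSPA2 rose by 1.17 to 6.25 ± 0.26 in shATAD3A cells, against 5.08 ± 0.11 in shGFP cells (SD, n = 3 each), and HSPH1, an HSP110 that exchanges nucleotide on HSP70, rose by 0.64. Of 10 HSP40 genes 5 rose and 3 fell, with a median of 0.11. DNAJB2 rose by 0.74, with shGFP cells at the edge of the low mode, and DNAJA2 by 0.42, with -0.0026 on a second DNAJA2 probe set, while DNAJB6, a suppressor of aggregation, changed by -0.52. Of 9 genes of HSP90 and its co-chaperones 4 rose and 2 fell, with a median of -0.13. PTGES3 (p23) rose by 0.40. PPID changed by -0.25 on an x_at probe set, with -0.18 on another, which did not pass, and -0.75 on a dim one. FKBP5 changed by -0.13, with -0.11 and -0.038 on its other probe sets. In the fit over all probe sets no FKBP5 probe set passed. Of 7 subunits of the cytosolic chaperonin TRiC 5 rose and 2 fell, with a median of 0.27, the highest rises being CCT5 with 0.59 and CCT2 with 0.49. CCT6A and CCT8 changed by -0.44 and -0.16.

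Genes of the autophagy route that BAG3 and HSPB8 serve were split. Of 10 measured, 2 rose, 3 fell and 5 did not pass, with a median of -0.048. SQSTM1, the p62 receptor that carries ubiquitinated clients to autophagosomes, averaged 12.2 ± 0.032 in shATAD3A cells and 11.5 ± 0.024 in shGFP cells (SD, n = 3 each), a difference of 0.65 (limma adjusted p = 2.68e-05). Its other bright probe sets gave 0.32 and 0.99. VPS18 rose by 0.52. HDAC6, the deacetylase that moves aggregates along microtubules, fell to 7.10 ± 0.091 in shATAD3A cells, against 8.16 ± 0.070 in shGFP cells (SD, n = 3 each), a difference of -1.06, while its other probe sets lay in the low mode. WIPI1 changed by -1.13, and its second probe set was called lower too. STUB1, the ubiquitin ligase CHIP that works with BAG3, differed by -0.042 and did not pass.

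Of 8 kinases of the p38 and MK2 route, which phosphorylates HSPB1, 3 rose and 0 fell, with a median of 0.11. MAPK14 (p38 alpha) was not analysed here. MAPK12 (p38 gamma) rose by 1.16 to 7.01 ± 0.25 in shATAD3A cells, against 5.85 ± 0.17 in shGFP cells (SD, n = 3 each), and MAPK13 (p38 delta) by 0.53. MAPKAPK2, the MK2 kinase itself, differed by 0.16 and did not pass (limma adjusted p = 0.125). MAPKAPK3 rose by 0.46 (limma adjusted p = 0.00206). Phosphorylation was not measured. Among 8 intermediate filament genes whose proteins small heat shock proteins can bind, 3 rose and 1 fell, with a median of 0.0042. KRT8 rose by 1.42 and KRT18 by 1.00, both on probe sets of the x_at type, LMNA changed by -0.27, and VIM differed by 0.019 and did not pass.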

How the data were processed

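Total RNA (250 ng) was labelled with biotin and hybridised to U133 Plus 2.0 arrays, per the labels' protocols. The deposited values are log2 values; this scale was read from their range (0.826 to 16.6), while the summary method is not given in the sources used here. Per the submitters' processing notes the tool was Partek, with no version. Medians of the arrays were 3.16 to 3.23.

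After 62 control probe sets were set aside, 41091 of 54613 had 1 symbol in the platform annotation, 1801 several and 11721 none. Groups were compared with limma 3.58.1 (lmFit, eBayes, two-sided) in R 4.3.3, with Benjamini-Hochberg adjustment at 0.05, over all probe sets for members and over 19775 genes (brightest probe set each) for lists. The fits were tested on simulated data. From each list, up to 2 largest rises and 2 largest falls among called genes without overlap are named, or the smallest p where none passed; other genes were named after their values were seen. Members and lists were chosen with earlier results of these data known. Lists were described by counts and medians, with no set test. Promoters and gene order come from RefSeq (GRCh38.p14). No 2 arrays shared more than 0.0165% of values. Alternatives covered normalization, filters, probe set choice, variance prior, array weights, threshold, the replicate number and leaving out each array.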

Additional observations from a re-analysis of the deposited data

How the results depend on the processing

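Of the 4 member probe sets called, HSPB8 and HSPB1 were called in all 12 other settings that could give a value and at the threshold of 0.01. HSPB8 was chosen by its known difference in these same arrays, so its calls follow from that choice and are no separate support. BAG3 was called in 8 of 12 and HSF1 in 5 of 13. The number of member probe sets called was 2 with arrays centred on their medians and 2 at the threshold of 0.01. It was 1 when s_at and x_at probe sets were left out, which removes the called probe sets of HSPB8, HSPB1 and BAG3. Leaving out each replicate gave 3 to 4 member probe sets, 10410 to 11725 of all probe sets (12240 in the full fit), 5845 to 6457 genes (6644) and 41 to 45 list genes (47). Without s_at and x_at probe sets, 7249 probe sets and 30 list genes were called, from fewer rows tested. In that setting the calls per list were 2 for the BAG family and 0 for other heat shock factors with HSBP1. They were 5 for HSP40, 6 for HSF1 targets and 1 for filaments. At the threshold of 0.01 the BAG family and HSP90 lists had 3 calls each. Deviations of arrays with the same replicate number correlated at -0.213, -0.106 and 0.038. Those with different numbers correlated at -0.115 to 0.200. No pairing by replicate number was thus seen, but so few arrays cannot decide whether they were prepared in pairs. With the replicate number as a block, 2 member probe sets and 10773 of all probe sets were called. No called member changed direction in any setting tried. HSPB8 differed by 3.34 when its probe sets were averaged, which takes in the dim one. Calls per list stayed within 1.5 times in 156 of 165 cases. Signal over background limits every statement on the 9 member probe sets in the low mode.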
